A study of Mus musculus with 8 samples.

Results

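The PDE4 family of cAMP phosphodiesterases is encoded in the mouse by 4 paralogous genes, Pde4a (Entrez gene 18577), Pde4b (18578), Pde4c (110385) and Pde4d (238871). Their rows were found in the deposited table by the Entrez gene number that serves as probe set number, and all 4 were among the 24011 genes with a value on each array. The arrays measured total RNA of primary macrophages that had been grown for 7 days from bone marrow of wild-type mice aged 8 to 10 weeks, in medium with L cell-conditioned medium as the source of M-CSF, the growth factor of macrophages. In 4 samples the cells had been given hepcidin, the peptide hormone that lowers the iron exporter ferroportin, at 10 µg/ml for 1 h before lysis. The other 4 samples, labelled PBS, were the controls. The labels name neither strain nor sex of the mice. Each title carries a number from 1 to 4, and no label says whether it stands for an animal, a culture or a day. The errors given here therefore cover the variation among these 8 samples, part of which may be technical.

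PDE4 enzymes break down cyclic AMP and not cyclic GMP, and so end the signal that receptors coupled to Gs start through adenylyl cyclase, protein kinase A and the transcription factor CREB. Cyclic AMP restrains the release of inflammatory cytokines by macrophages, and inhibitors of PDE4 are used as anti-inflammatory drugs. Each PDE4 gene has several start sites, which give long and short enzymes that differ in their regulatory N-terminal part and share the catalytic part. In macrophages, Pde4b is known as the paralog induced by bacterial lipopolysaccharide.

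The family was selected on the change of Pde4b with hepcidin in these same arrays, so the changes of all 4 genes are given as descriptions, without a test. Values are log2 of the RMA signal, which summarises the probes of a gene. They depend on how well the probes of a gene hybridise, and no order of abundance between paralogs is drawn from them.

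Because Pde4b was the paralog whose level differed between the groups, the 250 bases before each of its start sites in RefSeq (GRCm38.p6) are shown. Capitals mark the bases TGACG, the core of the cAMP response element, or a match to the NF-kB consensus, each on either strand.
Pde4b start 1, chr4:102421305-102421554, + strand: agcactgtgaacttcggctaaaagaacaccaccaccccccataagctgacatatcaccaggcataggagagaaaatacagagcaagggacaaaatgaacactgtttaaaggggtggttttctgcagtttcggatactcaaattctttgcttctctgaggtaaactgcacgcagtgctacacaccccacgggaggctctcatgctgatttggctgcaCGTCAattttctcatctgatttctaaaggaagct
Pde4b start 2, chr4:102569810-102570059, + strand: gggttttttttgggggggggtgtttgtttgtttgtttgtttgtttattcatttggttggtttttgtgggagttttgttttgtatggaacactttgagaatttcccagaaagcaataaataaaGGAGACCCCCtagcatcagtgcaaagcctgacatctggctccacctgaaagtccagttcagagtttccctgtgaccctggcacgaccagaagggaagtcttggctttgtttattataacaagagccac
Pde4b start 3, chr4:102587308-102587557, + strand: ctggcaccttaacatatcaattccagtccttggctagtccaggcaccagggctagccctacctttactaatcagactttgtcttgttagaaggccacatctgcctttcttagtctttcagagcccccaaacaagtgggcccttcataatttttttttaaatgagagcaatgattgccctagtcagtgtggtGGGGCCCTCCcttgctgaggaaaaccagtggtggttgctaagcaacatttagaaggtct
Pde4b start 4, chr4:102589593-102589842, + strand: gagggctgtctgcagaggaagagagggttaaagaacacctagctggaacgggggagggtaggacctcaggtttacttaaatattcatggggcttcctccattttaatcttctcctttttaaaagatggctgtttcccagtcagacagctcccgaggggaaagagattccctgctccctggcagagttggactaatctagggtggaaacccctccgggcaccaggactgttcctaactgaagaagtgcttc

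The RefSeq table held 9 such windows for the family, 4 of Pde4b, 3 of Pde4a and 1 each of Pde4c and Pde4d. The whole cAMP response element, TGACGTCA, was in 0 of the 9 windows and in 1.55% of the 32851 windows of all genes. Its core TGACG, which the whole element contains, was in 2 of the 9, at start 1 of Pde4b and start 2 of Pde4a, where 17.8% of all windows held it. The NF-kB consensus was in 2 of the 9, both of Pde4b, and in 7.25% of all windows. At start 2 the match began 128 bases before the start, and at start 3 it began 59 bases before it. The AP-1 element TGANTCA was in 0 of the 9 windows, against 6.75% of all. Start 4 of Pde4b and the windows of Pde4c and Pde4d held none of the 4 motifs. A match is a string of letters and not a site shown to be bound. The deposited table has a single value per gene, so which Pde4b start was in use was not measured.

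Pde4b stood at 4.66, 4.54, 4.42 and 4.52 on the PBS arrays numbered 1 to 4. With hepcidin it stood at 5.32, 4.99, 5.09 and 4.99. The lowest hepcidin array lay 0.33 above the highest PBS array, so the groups did not overlap. That was true of 1 of the 4 members and of 1.88% of all genes, 0.845% in the higher direction. The means were 4.53 ± 0.10 with PBS and 5.10 ± 0.16 with hepcidin (SD, n = 4), which is a 1.48-fold difference. The log2 change was 0.57 ± 0.10 (SE from limma), and the SE was 0.08 with the array number as a block. Paired by number, the ratios were 1.59, 1.37, 1.59 and 1.39, all above 1, as for 5.69% of all genes. The mean change of 25 of the 24011 genes was larger.

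Pde4a was level between the groups. It stood at 6.50, 6.40, 6.58 and 6.59 with PBS and at 6.64, 6.40, 6.42 and 6.72 with hepcidin. The hepcidin arrays held both the highest value of the 8 and one that matched the lowest PBS array, so the groups overlapped. The means were 6.52 ± 0.09 and 6.55 ± 0.16 (SD, n = 4), with a log2 change of 0.03 ± 0.10 (SE) and 2 of 4 pairs higher. The sign turned, to -0.01, without both arrays numbered 1, and leaving out any 1 array gave -0.03 to 0.08.

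Pde4d, the longest gene of the family in the mouse genome, stood at 5.68, 5.62, 5.36 and 5.29 with PBS and at 5.64, 5.50, 5.16 and 5.32 with hepcidin. In both groups the arrays numbered 1 and 2 were high and those numbered 3 and 4 low. The means were 5.49 ± 0.19 and 5.41 ± 0.21 (SD, n = 4), and the log2 change was -0.08 ± 0.13 (SE), or 0.07 for the SE with the block. Only pair 4 was higher with hepcidin, by 0.04.

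Pde4c stood at 4.79, 4.51, 4.76 and 4.43 with PBS and at 4.61, 4.66, 4.42 and 4.40 with hepcidin. The groups overlapped, and 1 of 4 pairs was higher with hepcidin. Its means were 4.62 ± 0.18 and 4.52 ± 0.13 (SD, n = 4), with a log2 change of -0.10 ± 0.11 (SE). The pair values ran from -0.34 to 0.15, the widest spread of the 4 paralogs.

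**Figure D1:**
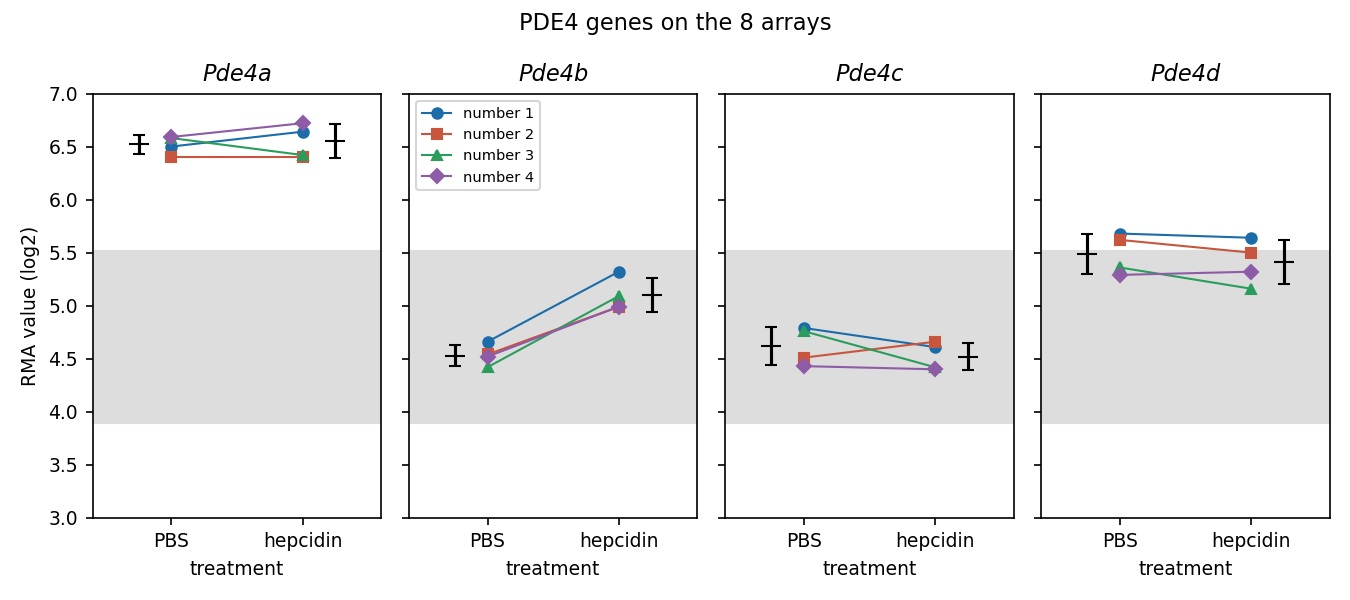
RMA value (log2) of each PDE4 gene on the PBS and hepcidin arrays. Lines join arrays with the same number, bars are the mean ± SD of 4 arrays, and the grey band runs from the median (3.89) to the 90th percentile (5.52) of 29 marker genes of cells other than macrophages. The lines of Pde4b all go up, from 4.42 to 4.66 with PBS to 4.99 to 5.32 with hepcidin, and those of the other paralogs go both ways.

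The change of Pde4b exceeded that of each paralog in 4 of 4 pairs. The excess over Pde4a was 0.52, 0.45, 0.82 and 0.34 in pairs 1 to 4, with a mean of 0.54 ± 0.21 (SD, n = 4 pairs). Over Pde4d it was 0.70, 0.58, 0.87 and 0.44, with a mean of 0.65 ± 0.19. Over Pde4c it was 0.84, 0.30, 1.01 and 0.51, with a mean of 0.66 ± 0.32. Among the other paralogs the differences in change were smaller, with means of 0.13 ± 0.20 for Pde4a minus Pde4c, 0.11 ± 0.05 for Pde4a minus Pde4d and -0.02 ± 0.20 for Pde4c minus Pde4d. Pde4a lay above Pde4d in all 4 pairs by 0.05 to 0.18, and that mean moved between 0.03 and 0.20 when single arrays were left out. These are differences between changes on the log2 scale, where changes of dim genes are compressed.

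For the resting level, the PBS mean of a gene was set beside the other genes of the array. Below it lay the PBS means of 66.0% of all genes for Pde4a, 56.8% for Pde4d, 45.6% for Pde4c and 44.1% for Pde4b. With hepcidin, 52.7% of genes lay below Pde4b. Background was gauged by 29 marker genes of endothelium, B cells and T or NK cells, whose PBS means had a median of 3.89 and a 90th percentile of 5.52. The highest was Kdr at 7.53, so the 90th percentile is a loose gauge and not a limit of detection. Pde4a lay above that percentile. Pde4b, Pde4c and Pde4d lay between the median and the 90th percentile, Pde4b in both groups. Ratios are compressed near background on such a scale, so the ratio of 1.48 for Pde4b may understate its change. In bulk RNA, more cells with the mRNA and more mRNA per cell cannot be told apart.

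Markers of the labelled cell type were bright, with 13 of them measured. Their PBS means ran from 8.31 for Mertk to 13.1 for Cd68. Neutrophil and precursor markers, 12 in number, had a mean per array of 4.74 to 5.94 with PBS and 4.60 to 5.88 with hepcidin, with the lowest on number 1 in both groups. The macrophage list was also lowest on number 1, at 11.0 on the PBS array and 11.1 on the hepcidin array, while the other arrays stood at 11.5 to 11.6. B cell markers stood at 3.78 to 3.95 with PBS and 3.82 to 3.88 with hepcidin, and those of T and NK cells at 3.86 to 4.05 and 3.86 to 3.91. The array means of the groups overlapped in each of these 4 lists. Of their single genes, 1 T and NK marker had groups that did not overlap, where 1.88% of all genes did. Of the 10 endothelium markers, 1 also had such groups. The groups overlapped for all markers of dendritic cells, of mast cells and basophils, and of fibroblasts. Higher with hepcidin were 2 of 8 dendritic cell markers, 4 of 8 mast cell and basophil markers and 4 of 8 fibroblast markers. Whether the mix of cells bears on the level of Pde4b was not tested. Array medians lay between 4.87 and 4.95.

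Besides PDE4, 20 genes of other phosphodiesterases were measured. Of these 12 belong to families that degrade cAMP and 8 to families specific for cGMP. Their log2 changes with hepcidin ran from -0.13 for Pde1c to 0.09 for Pde6g, the gene of an inhibitory subunit of the photoreceptor enzyme, and the median was -0.03. The groups overlapped for all 20, where 1.88% of all genes had groups that did not. In limma 0 of the 20 passed the adjusted threshold of 0.05 and 0 had an unadjusted p under 0.05, with or without the block. Of all genes, 0% passed adjusted without and 0.00416% with the block, and 2.86% and 4.91% had an unadjusted p under 0.05, so 0 of 20 is near the share of all genes. Among them were genes well above background, such as Pde7b at 9.65 ± 0.29 with PBS and 9.56 ± 0.23 with hepcidin, Pde8a at 9.43 ± 0.16 and 9.46 ± 0.12, and Pde1b at 8.28 ± 0.42 and 8.25 ± 0.39 (SD, n = 4).

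**Figure D2:**
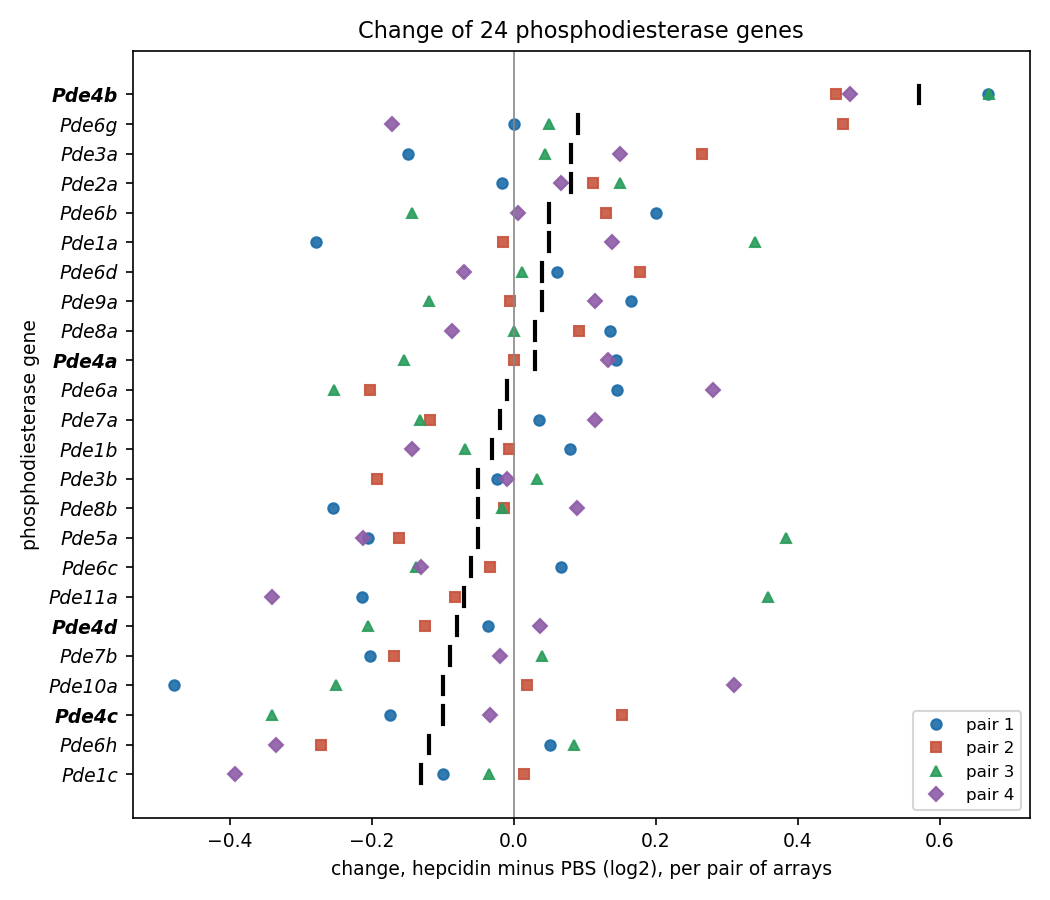
Log2 change, hepcidin minus PBS, of 24 phosphodiesterase genes ordered by their mean, with a symbol for each pair of arrays and a black line at the mean of 4 pairs. Pde4b stands at 0.57 with pairs from 0.45 to 0.67, and the other 23 means lie between -0.13 and 0.09.

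Some phosphodiesterase genes with changes near 0 had wide ranges between array numbers. Pde5a, which degrades cGMP and changed by -0.05 with hepcidin, had a mean over both arrays of a number of 6.47, 5.36, 5.78 and 4.96 on numbers 1 to 4. Pde3b, a cAMP phosphodiesterase inhibited by cGMP, stood at 6.96, 5.99, 6.34 and 6.42. Pde2a, a cAMP and cGMP phosphodiesterase stimulated by cGMP, went the other way on number 1, at 6.59, 7.36, 6.78 and 7.27. The range of these number means was 1.50 for Pde5a, 0.98 for Pde1b, 0.97 for Pde3b and 0.77 for Pde2a. In the PDE4 family it was 0.25 for Pde4a, 0.24 for Pde4b, 0.29 for Pde4c and 0.40 for Pde4d. Pde4b had a number mean of 4.99 on number 1 and of 4.75 to 4.76 on the others. On single arrays the range of Pde4b was 0.24 with PBS and 0.33 with hepcidin. The family was selected on the change of Pde4b, so that change is not weighed against these ranges.

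**Figure D3:**
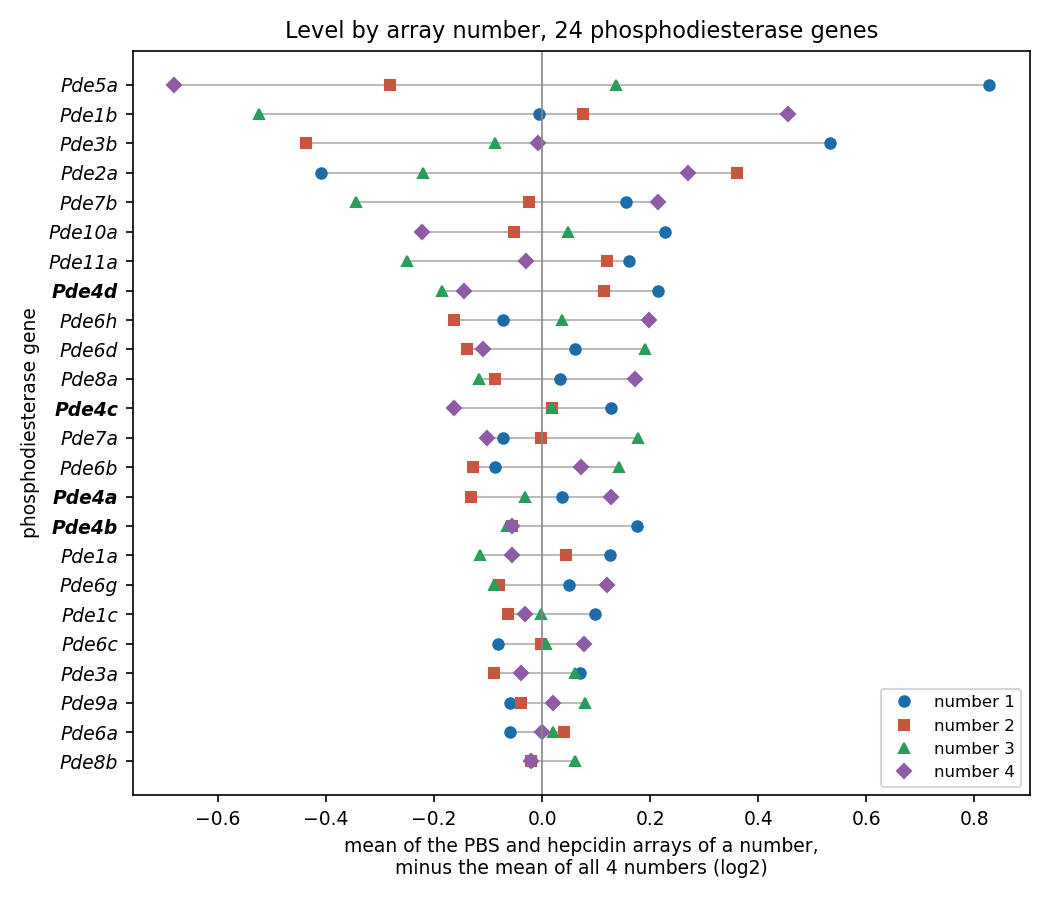
Mean of the PBS and hepcidin arrays of each number, minus the mean over the 4 numbers (log2), for 24 phosphodiesterase genes ordered by the range. Pde5a spans 1.50 and Pde1b 0.98, and the PDE4 genes span 0.24 to 0.40.

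Over the 8 arrays the paralogs did not share a profile, apart from Pde4c and Pde4d. Pearson's r was 0.60 for Pde4c with Pde4d (Spearman's rho 0.71). It was 0.16 for Pde4a with Pde4b, -0.12 for Pde4a with Pde4d, -0.17 for Pde4a with Pde4c, 0.01 for Pde4b with Pde4d and -0.24 for Pde4b with Pde4c. These are measures of likeness over 8 arrays that share treatment and number, and not tests.

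The genes most like Pde4b by Pearson's r over the 8 arrays, among 19087 named genes, were Cdc42ep2, an effector of the GTPase Cdc42 (0.969), Nfkbie, an inhibitor of NF-kB (0.962), and Relb, an NF-kB subunit (0.947). They were followed by Lrrc75aos1 (0.942), Rsl1 (0.938) and Stx8 (0.938). Spearman's rho lay between 0.881 for Rsl1 and 0.976 for Lrrc75aos1. The log2 change with hepcidin was 0.58 ± 0.13 for Cdc42ep2, 0.79 ± 0.10 for Nfkbie and 0.42 ± 0.11 for Relb (SE). It was 0.30 ± 0.10 for Lrrc75aos1, 0.46 ± 0.10 for Rsl1 and 0.15 ± 0.08 for Stx8. The correlation included the difference between the groups, on which Pde4b was selected, so genes that also rose with hepcidin rank high for it. Whether these genes share regulation with Pde4b was not tested. A likeness of at least 0.9 was reached by 21 genes for Pde4b, 24 for Pde4a, 14 for Pde4c and 106 for Pde4d. For Pde4d the closest were Sec23ip (0.972), Atf6 (0.971) and Sec11c (0.968), whose changes with hepcidin lay between -0.02 and -0.01. For Pde4a they were Mien1 (0.967), Lyplal1 (0.964) and Trdv1 (0.959), and for Pde4c Capn9 (0.969), Septin1 (0.961) and Mir367 (0.957). With so many candidates and 8 arrays, high values occur for each paralog, also for those with level groups. Lrrc75aos1, Trdv1 and Mir367 lay below the background median of 3.89 in both groups.

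The genes upstream and downstream of PDE4 in cAMP signalling were taken from 11 lists with 104 distinct measured genes, which include the other phosphodiesterases. In limma, 0 of the 104 passed the threshold adjusted over the whole table, where 0% of all genes did. With the array number as a block, 0 of the 104 and 0.00416% of all genes passed. At an unadjusted p under 0.05 there were 3 of the 104, or 2.88%, against 2.86% of all genes. With the block there were 7, or 6.73%, against 4.91%. The groups overlapped for all 104, where 1.88% of all genes had groups that did not. Their median log2 change was 0.01, and that of all genes was 0.001.

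Of 12 measured receptors that raise cAMP, 7 were higher with hepcidin and 1, Ptger4, had an unadjusted p under 0.05, where 2.86% of all genes did. With the block, where 4.91% of all genes did, there were 2, Ptger4 and the lower Vipr2, a receptor gene for vasoactive intestinal peptide. Ptger4 encodes the EP4 receptor, through which prostaglandin E2 raises cAMP. It stood at 7.27, 7.59, 7.48 and 7.75 with PBS and at 7.64, 7.79, 8.15 and 8.05 with hepcidin. Each pair was higher and the groups overlapped. Its change was 0.38 ± 0.14 (SE; limma adjusted p 1, and 0.784 with the block). Vipr2 changed by -0.28 ± 0.18 (SE), with an SE of 0.09 and a limma adjusted p of 0.907 with the block. The dopamine receptor gene Drd1, at 3.02 with PBS and 3.18 with hepcidin, lay below the background median. Of the list genes named below, Gnal, Adcy10 and Pde3a also lay below it in both groups, and Pde6h did with hepcidin.

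Adenylyl cyclases, which make cAMP, had a median change of 0.02 over 10 genes. The genes with the smallest unadjusted p were Adcy4 at 0.08 ± 0.08 and Adcy10 at -0.10 ± 0.09 (SE). Among 8 G protein subunit genes the median was 0.03, with Gnal at 0.13 ± 0.08 and Gnb1 at 0.07 ± 0.08. Neither list held a gene with an unadjusted p under 0.05 in limma, where 2.86% of all genes had one, or 4.91% with the block. In lists this short, 0 is near the share of all genes.

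Among the effectors of cAMP, the 9 genes of protein kinase A subunits and inhibitors had a median change of 0.01. The catalytic subunit gene Prkaca changed by 0.14 ± 0.11 and the inhibitor gene Pkig by 0.14 ± 0.12 (SE). The other effector list held 6 measured genes, of which 2 had an unadjusted p under 0.05 with or without the block, both lower with hepcidin, where 2.86% of all genes had one without and 4.91% with the block. Rap1a, a small GTPase activated by Epac proteins, stood at 7.90, 7.76, 7.87 and 7.66 with PBS and at 7.68, 7.65, 7.45 and 7.31 with hepcidin. Rapgef3, which encodes the cAMP sensor Epac1, stood at 5.19, 5.00, 4.91 and 5.20 with PBS and at 4.78, 4.83, 4.85 and 4.96 with hepcidin. Each was lower in all pairs, with overlapping groups. The changes were -0.27 ± 0.10 for Rap1a and -0.22 ± 0.09 for Rapgef3 (SE; limma adjusted p 1 for each, and 0.861 and 0.967 with the block). The 12 A-kinase anchoring protein genes, which place protein kinase A and PDE4 in the cell, had a median change of -0.02 and lay between -0.11 for Akap5 and 0.08, with Akap1 at -0.05 ± 0.08.

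Genes of CREB and its coactivators had a median change of -0.03 over 8 genes, with Atf1 at -0.26 ± 0.17 and the histone acetyltransferase gene Ep300 at -0.12 ± 0.11 (SE). Of the 8, 1 had an unadjusted p under 0.05 in limma with the block, where 4.91% of all genes had one. Without the block 0 had one, against 2.86% of all genes. The gene was Atf1, with an unadjusted p in limma of 0.0342 with the block and 0.152 without. Its adjusted p with the block was 0.97. The 13 measured CREB target genes had a median change of 0.02. The largest change among them was that of Thbs1, the gene of the matrix protein thrombospondin, at 5.16, 6.13, 5.80 and 6.10 with PBS and 5.94, 6.37, 6.14 and 6.29 with hepcidin. It was higher in 4 of 4 pairs, most on number 1, with overlapping groups and a change of 0.39 ± 0.20 (SE; limma adjusted p 1, and 0.819 with the block). With the block, 2 of the 13 had an unadjusted p under 0.05 in limma, where 4.91% of all genes had one. They were Thbs1 and Fos, a component of AP-1 at 0.28 ± 0.31 (SE; limma adjusted p 0.967 with the block). Without the block there were 0 of the 13, against 2.86% of all genes. The orphan receptor gene Nr4a3 changed by 0.09 ± 0.09. The list of PDE4 partners and kinases, which also holds the transporter gene Abcc4, had 6 measured genes with a median change of 0.03. In this list the kinase gene Mapkapk2 stood at 0.11 ± 0.09 and the beta-arrestin gene Arrb2 at 0.08 ± 0.13. The other phosphodiesterase genes with the smallest unadjusted p were Pde1c (-0.13 ± 0.09), Pde3a (0.08 ± 0.09), Pde6h (-0.12 ± 0.12) and Pde6g (0.09 ± 0.11).

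**Figure D4:**
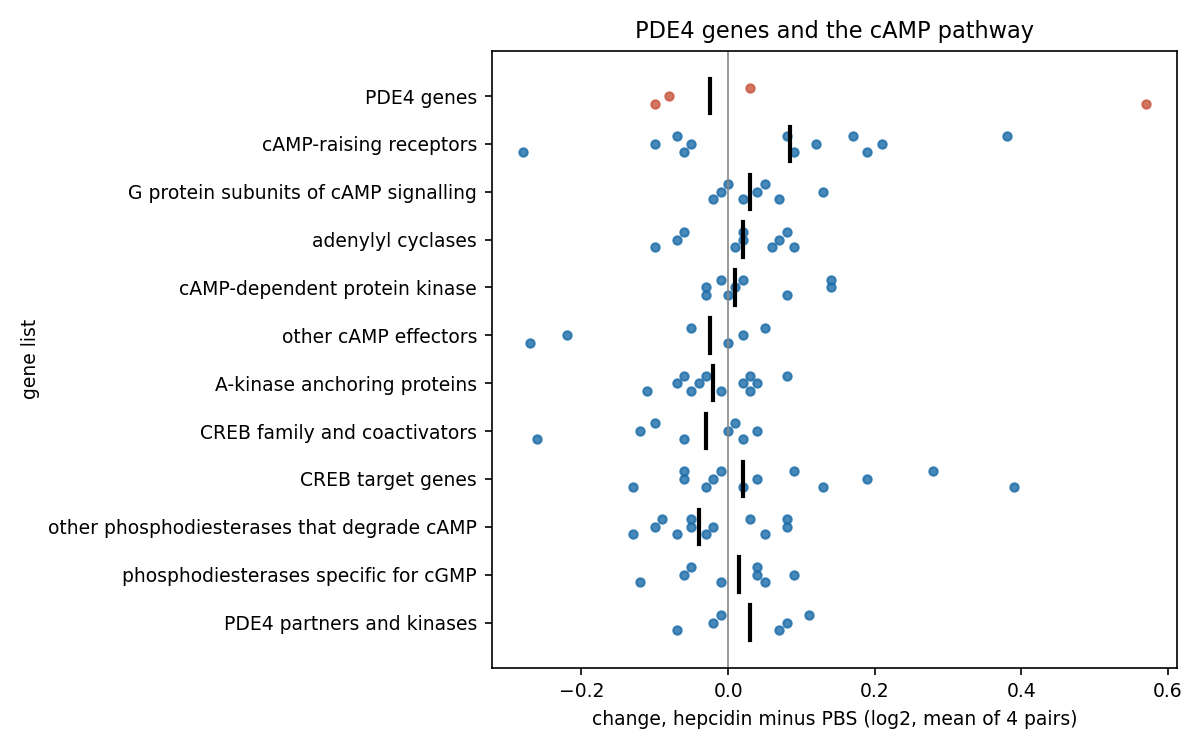
Log2 change with hepcidin, mean of 4 pairs, of the 4 PDE4 genes (top row) and of each measured gene in 11 lists of cAMP signalling, with a black line at the median of each list. Pde4b lies at 0.57, the other PDE4 genes lie between -0.10 and 0.03, and the list genes lie between -0.28 and 0.39.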

How the data were processed

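Total RNA of 8 macrophage samples was hybridised to Affymetrix whole-transcript arrays. Per the submitters' processing notes, the authors made the deposited log2 values with affy 1.36.1 by RMA, which corrects background, gives the arrays a common distribution and summarises probes. The sources used here do not name the probe set definition or its genome build. Values were used as deposited. Of 24973 probe sets, 24015 had exactly 1 symbol in the platform annotation and none several, and 958 had none. Of the named, 23922 were matched by gene number to RefSeq (GRCm38.p6). For repeated symbols the brightest probe set was kept (4 dropped), which left 24011 genes, with no filter on low values. The number of arrays limits the precision.

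Groups and numbers come from the titles. All genes were fitted in R 4.3.3 by limma 3.58.1, with default eBayes, Benjamini-Hochberg adjustment and a threshold of 0.05. Equal numbers were taken to pair arrays: deviations from the group mean correlated across genes at 0.344 to 0.548 between arrays of the same number and at -0.356 to 0.124 otherwise. The fit was tested on simulated data.

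The members and lists were chosen with earlier results of these data known. Named genes are the 4 members, per list those past the threshold (or, with none, the 2 of smallest unadjusted p), and the genes most correlated with a member over 8 arrays (6 for Pde4b, 3 for each other), leaving out predicted and olfactory or vomeronasal receptor genes. Pde7b, Pde8a, Pde1b, Pde5a, Pde3b, Pde2a, Vipr2 and Fos were named after their values were seen. Of 114 list entries, 104 distinct genes were measured. Motifs were searched on both strands. Alternatives were other normalizations, filters on dim genes, variance models, array weights, all probe sets, the number as a fixed or random block, and leaving out arrays. Figures were drawn with matplotlib 3.10.9.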

Additional observations from a re-analysis of the deposited data

Results flagged for a closer look

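Of 78 sets of 4 arrays that were looked at, 4 had a single array whose gap to the others exceeded Dixon's critical value. Chance gives about 1 in 20. None was a PDE4 gene. The adenylyl cyclase gene Adcy4 was at 4.33 on the PBS array numbered 1, against 4.17 to 4.18 on the other PBS arrays. Adcy10 was at 3.22 on the hepcidin array numbered 1, against 2.93 to 2.96, all below the median of the background markers. Ep300 was at 10.44 on the PBS array numbered 1, against 10.03 to 10.06. The mean of the CREB family and coactivator list was 8.53 on the PBS array numbered 1, the highest of its group.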

How the results depend on the processing

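The log2 change of Pde4b lay between 0.53 and 0.58 in all alternatives that could be fitted with all arrays or without number 1, and between 0.49 and 0.61 when single arrays were left out. It was not tested under the filters on dim genes, both of which removed Pde4b and Pde4c, and the one at a mean of 6 also Pde4d. Pde4c stayed at or below -0.04, Pde4d at or below 0.00 and Pde4a between -0.03 and 0.08. The excess of Pde4b over a paralog stayed at or above 0.48. The mean of Pde4a minus Pde4d ran from 0.03 to 0.20 without single arrays. The number of genes past the threshold over the whole table was 0 in the main fit, which had no block. It was 1 with the replicate block (Cxcl2), 5 with the number as a random block, 3 where dim genes, under a mean of 6, were left out, and 1 without both arrays numbered 1 with the block. Without single arrays it ran from 0 to 2, the latter without the hepcidin array numbered 2 (Nfkbiz and Tnf). In limma without a block, 686 genes had an unadjusted p under 0.05. Of the 104 cAMP pathway genes, 0 were past the threshold in limma under each of the 20 alternatives, the paired fit with the replicate block included, among those left by the filters. Signals near background limit what can be said of Pde4b and Pde4c.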
